A study of Mus musculus with 2 samples.

Results

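The deoxynucleotide supply genes are 6 genes whose enzymes make the building blocks of DNA. They are Rrm1 and Rrm2, the subunits of ribonucleotide reductase, the salvage kinases Tk1 and Dck, and Tyms and Dut of thymidylate synthesis. Their probe sets were taken by symbol, as every probe set whose annotated gene is among them. The genes themselves were chosen when earlier results of these data were known, so the choice was not blind to the values. Of the 8251 genes that had a probe set of their own on the array, 5 were these genes. The remaining gene, Tyms, was represented only by probe sets that are annotated to Tyms and to its pseudogene Tyms-ps at once, so it is described separately and is in no count of genes.

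RNA of D16 and of D351, which are 2 clones of mouse mesoangioblasts, was hybridized to Affymetrix U74A arrays, 1 per clone. Mesoangioblasts are progenitors associated with vessels, from which several kinds of mesodermal cell can form. Explanted dorsal aorta of C57BL6 mouse embryos, taken on embryonic day 9.5, was the source of both clones. After 5 days as an explant, the cells were cloned on mitomycin C-treated embryonic fibroblasts in RPMI with 20% fetal calf serum, then expanded on gelatin. The labels name no genetic change or treatment that separates the groups, and each is a single clone, so a difference between clones cannot be told apart from a difference between these cultures or arrays. Since neither clone has a replicate, nothing could be tested, and all differences below are sizes measured between the arrays. In bulk RNA, fewer cells that express a gene and less RNA of it per cell cannot be told apart.

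Cells build DNA from deoxynucleotides that they obtain along 2 routes. Ribonucleotide reductase removes an oxygen from the sugar of ribonucleotides and so feeds all deoxynucleotide pools, while salvage kinases phosphorylate deoxynucleosides taken up from outside or released by breakdown. Thymidylate needs a further step, in which thymidylate synthase methylates dUMP, a substrate that dUTPase supplies by cleaving dUTP, which also keeps uracil out of DNA. Rrm2, Tk1 and Tyms are textbook genes of S phase, whose transcription is driven in part by E2F factors, and proliferating cells in general hold more of these transcripts than resting ones. Dck activity is known to vary less over the cell cycle than that of Tk1.

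Because the transcripts of these genes are known to be controlled at their start sites, the promoters of the 4 genes that had measured levels in both clones are shown first. The sequences are from RefSeq, build GRCm38.p6, and hold 250 bases before and 50 after the annotated start of each gene. The capitals mark a short core of E2F sites, TCCCGC or TGGCGC on either strand, and the CCAAT box, CCAAT on either strand.
Rrm1 promoter, chr7:102441445-102441744, plus strand: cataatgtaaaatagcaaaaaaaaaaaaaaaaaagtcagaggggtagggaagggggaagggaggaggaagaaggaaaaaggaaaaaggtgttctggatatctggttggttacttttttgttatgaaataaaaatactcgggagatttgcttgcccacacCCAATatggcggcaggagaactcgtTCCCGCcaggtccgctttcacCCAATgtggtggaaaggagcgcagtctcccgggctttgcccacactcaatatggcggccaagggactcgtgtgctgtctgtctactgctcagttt
Rrm2 promoter, chr12:24708004-24708303, plus strand: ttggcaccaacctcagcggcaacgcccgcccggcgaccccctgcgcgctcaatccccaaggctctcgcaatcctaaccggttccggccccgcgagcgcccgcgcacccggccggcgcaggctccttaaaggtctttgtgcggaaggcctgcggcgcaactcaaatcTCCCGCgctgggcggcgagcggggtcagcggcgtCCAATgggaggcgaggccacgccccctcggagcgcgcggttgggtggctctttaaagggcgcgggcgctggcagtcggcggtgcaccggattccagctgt
Tk1 promoter, chr11:117825965-117826264, minus strand: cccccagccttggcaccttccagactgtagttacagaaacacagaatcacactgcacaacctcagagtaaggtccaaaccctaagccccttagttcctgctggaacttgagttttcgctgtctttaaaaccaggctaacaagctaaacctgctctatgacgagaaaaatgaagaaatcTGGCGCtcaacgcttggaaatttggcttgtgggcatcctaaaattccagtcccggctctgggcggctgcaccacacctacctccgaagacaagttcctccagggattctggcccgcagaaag
Dck promoter, chr5:88764763-88765062, plus strand: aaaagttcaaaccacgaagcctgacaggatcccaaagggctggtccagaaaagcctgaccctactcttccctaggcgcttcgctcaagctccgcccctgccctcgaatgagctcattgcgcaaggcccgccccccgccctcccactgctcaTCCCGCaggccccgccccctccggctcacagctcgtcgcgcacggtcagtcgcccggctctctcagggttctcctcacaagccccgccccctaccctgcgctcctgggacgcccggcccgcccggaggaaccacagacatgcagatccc

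All 6 genes had a promoter in the RefSeq table, and all 6 windows held an E2F core. This core is common: it was present in 27.7% of all 32851 promoters, in 37.1% of the 23513 promoters with at least the 47% GC of Rrm1, the lowest of the 6, and in 46.1% of the 6341 promoters of genes measured here. Its letters were chosen with these promoters in view, so the matches are a description. With the first base of the transcript counted as 1 and the base before it as -1, the core began at -66 in Rrm1, -84 in Rrm2, -72 in Tk1 and -99 in Dck. In Tyms it lay inside the transcript, at 23, and Dut held 3 matches. The longer forms TTTCCCGC, TTTGGCGC, TTTCGCGC and TTTGCCGC, found in 2.26% of all promoters, were in 0 of the 6 windows.

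The CCAAT box, present in 37.4% of all promoters, was in the windows of Rrm1, at -91 and -45, and of Rrm2, at -50. In Rrm1 the letters ATGGCGG, the core of YY1 sites, followed the first CCAAT without a gap at -86 and stood again at 6. At any position in the window, 4.05% of all promoters and 7.92% of those of measured genes held them. The GC box GGGCGG was found in 5 of the 6 windows, against 35.7% of all promoters, 48.5% of those with at least 47% GC and 61.7% of those of measured genes. Dck held 6 matches and Rrm1 0. In Dut it overlapped an E2F core. The letters TTTGAA, of the CHR element of late cell cycle promoters, were in 1 of the 6 windows, that of Dck, and in 17.9% of all promoters. Letters that are not in these windows say nothing of the factors that bind elsewhere.

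The arrays held 12488 probe sets, 66 of them controls, and 60.7% of the others in D16 and 59.3% in D351 lay at or above the intensity floor of 17.4, below which levels were not read. Intensities are given after scaling to a common median. The median log2 ratio of D351 over D16 was -0.03 over the 6098 genes measured. Signal at the 3' end of Actb exceeded that at its 5' end 1.81-fold in D16 and 1.37-fold in D351, and for Gapdh the values were 1.56-fold and 1.44-fold. Of the progenitor markers, Kit and Kdr were below the floor in both clones, and Cd34 measured 475 in D16 and was below the floor in D351. Pdgfrb went the other way, at 54.4 in D16 and 197 in D351. By their brightest probe sets, Thy1, Pdgfra, Acta2 and Cd44 were above the floor in both and within 2-fold. Another probe set of Pdgfra had a log2 ratio of -1.54. Of the endothelial markers, Cdh5, Tek, Tie1 and Vwf were below the floor in both, Pecam1 was at 30.8 and 20.2, and Flt1 was above it in D351 alone, at 66.1. Of the haematopoietic list, Ptprc, Lyz2 and Itgam were below the floor in both, Csf1r was at 21.9 and 18.2, and Cd68 was above it in D351 alone, at 36.9. All 8 markers of embryonic fibroblasts, the cells used as feeders, were above the floor in both, with summed levels of 6478 in D16 and 9950 in D351. Past 2-fold, 4 of them were higher in D351 and 1 was higher in D16, and none was at 0. The part of feeder cells in the differences below was not tested.

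Deoxynucleotide supply genes had higher levels in D16 than in D351. Of the 5 genes with a probe set of their own, Dck, Rrm1 and Tk1 were higher in D16 by at least 2-fold, Rrm2 was 1.57-fold higher there, and Dut was too near the floor for its ratio to be measured. None passed 2-fold towards D351. The shares among all 6098 genes measured were 8.87% past 2-fold towards D16 and 10.6% past 2-fold towards D351. Among the 2963 genes with a mean level of at least 100, which is the range of Dck, Rrm1, Tk1 and Rrm2, the share higher in D16 was 8.84%. At 1.5-fold there were 4 genes, with Rrm2, against 21% of all genes, and at 4-fold 0, against 1.3%. The median log2 ratio of the 5 genes was -1.16.

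**Figure D1:**
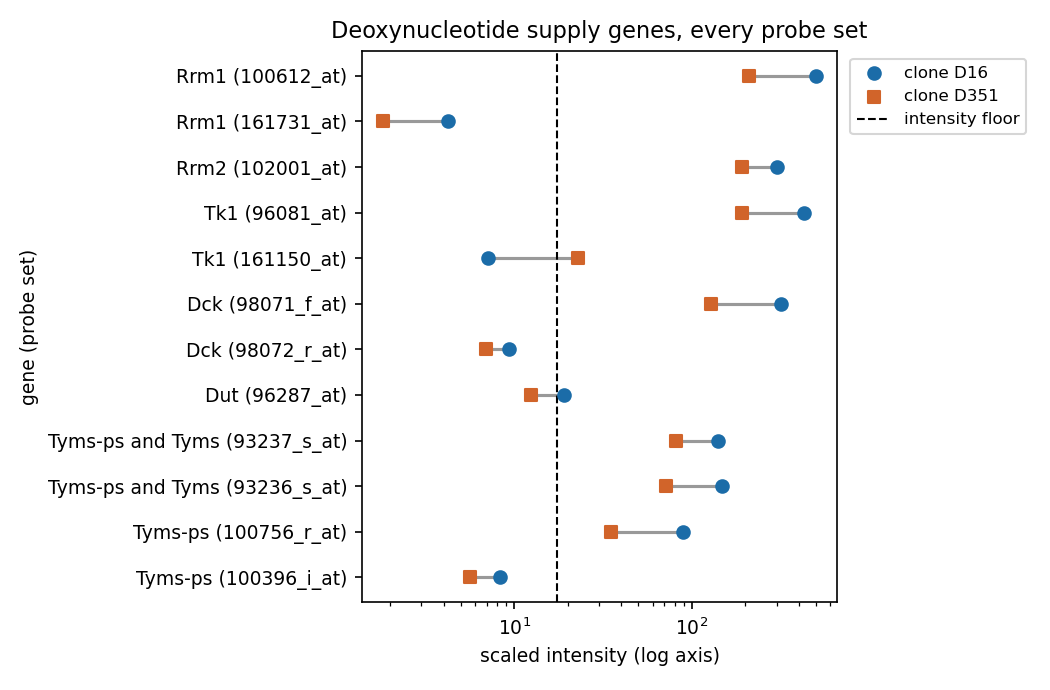
Scaled intensity (log axis) of every probe set annotated to a deoxynucleotide supply gene or to the pseudogene Tyms-ps, in clone D16 (circles) and clone D351 (squares), 1 array each; the dashed line is the floor of 17.4. The circle lies to the right of the square for every probe set except the dim one of Tk1, where D351 is the higher.

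Rrm1 encodes the large subunit of ribonucleotide reductase, which holds the catalytic and the regulatory sites, and lies on mouse chromosome 7. Its level was 498 in D16 and 208 in D351, so that it was 2.39-fold higher in D16, a log2 ratio of -1.26. Of all measured genes, 5.30% had a lower ratio. A further probe set of Rrm1 was below the floor in both clones, at 4.23 and 1.83, and gives no ratio.

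Rrm2, on chromosome 12, encodes the small subunit, which carries the tyrosyl radical and is the subunit whose amount is known to limit the enzyme to S phase. Its level was 302 in D16 and 192 in D351 by its only probe set, 1.57-fold higher in D16 with a log2 ratio of -0.65, and 18.3% of all genes had a lower one. It thus stayed within 2-fold, and its difference was the smallest of the 4 genes measured in both clones. The ratios of Rrm1 and Rrm2 were 0.60 apart on the log2 scale. Over 264 genes with probe sets of mean level at least 100, probe sets of the same gene had an SD of 0.42, which for the difference of 2 probe sets is 0.60. The gap between the subunits was thus about the size of this probe error.

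The alternative small subunit Rrm2b, known as a p53-induced gene that supplies deoxynucleotides outside S phase, had similar levels of 28.9 in D16 and 32.0 in D351, both near the floor. Its log2 ratio was 0.15, from a probe set with the suffix f, which can match transcripts of other genes. The reductase draws its electrons from thioredoxin. Txn1, which encodes it, measured 2492 in D16 and 1490 in D351, a log2 ratio of -0.74. Txnrd1, the thioredoxin reductase gene, measured 410 and 376. None of the 5 genes in the list of reductase partners was 2-fold apart in either direction, and the list median was -0.13.

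Tk1, on chromosome 11, encodes the cytosolic thymidine kinase, the salvage enzyme of S phase. By its brightest probe set it measured 428 in D16 and 192 in D351, 2.23-fold higher in D16 with a log2 ratio of -1.16, and 6.35% of genes had a lower one. A second probe set was below the floor in D16, at 7.08, and at 22.8 in D351, so by this probe set Tk1 was at least 1.31-fold higher in D351. That level lies close to the floor. The direction for Tk1 therefore rests on the bright probe set, and with the mean of both its log2 ratio was -0.38.

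Dck, on chromosome 5, encodes deoxycytidine kinase, which phosphorylates deoxycytidine and also deoxyadenosine and deoxyguanosine. Its level was 319 in D16 and 128 in D351. It was 2.50-fold higher in D16, the largest difference of the 5 genes, with a log2 ratio of -1.32, and 4.54% of genes had a lower one. This probe set has the suffix f as well, and the second probe set of Dck was below the floor in both clones, at 9.34 and 6.92. Without probe sets whose suffix marks possible matches to other genes, Dck has no measured level.

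The mitochondrial salvage kinases serve mitochondrial DNA in resting and dividing cells alike. Their ratios had the opposite sign to those of Dck and of the bright Tk1 probe set. Tk2, the mitochondrial thymidine kinase gene, was at 27.5 in D16 and 46.3 in D351, a log2 ratio of 0.75. Dguok, the deoxyguanosine kinase gene, was at 205 in D16 and 358 in D351, a log2 ratio of 0.81, and 0.63 by another of its probe sets. Neither reached 2-fold. By its bright probe set, the ratio of Tk1 lay 1.91 below that of Tk2, whose levels were near the floor. For the difference of 2 probe sets of the same gene over all levels, the SD was 0.73 (806 genes with several probe sets). The dim probe set of Tk1 had 0.39, the same sign as Tk2, so this gap rests on the bright one. The ratio of Dck lay 2.13 below that of Dguok, and at their levels this SD was 0.60. Such an SD covers probe error alone and holds no spread between cultures or arrays. The brighter Dguok probe set has the suffix s, which can also match transcripts of other genes. The nucleoside transporter gene Slc29a1, whose product brings deoxynucleosides into the cell, measured 727 in D16 and 185 in D351, 3.94-fold higher in D16, but a dimmer probe set had a log2 ratio of 0.02.

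Thymidylate synthase, the Tyms product, has no probe set of its own here. Of the 2 probe sets annotated to Tyms on chromosome 5 together with its pseudogene Tyms-ps on chromosome 10, the first measured 147 in D16 and 71.3 in D351, a log2 ratio of -1.04. The second measured 140 in D16 and 81.3 in D351, a log2 ratio of -0.78. A probe set annotated to the pseudogene alone measured 88.9 and 35.1, a log2 ratio of -1.34, and another was below the floor in both clones. All 3 measured probe sets were thus higher in D16, and transcripts of the gene and of the pseudogene cannot be told apart by them. The second shared probe set is the brighter by mean level, at 110 against 109 for the first. Counting it as a further gene left 3 genes at least 2-fold higher in D16, with a median of -0.97. The first, at -1.04, is itself past 2-fold, so this count depends on the choice.

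Dut, on chromosome 2, encodes dUTPase. Its only probe set measured 19.0 in D16, just above the floor, and 12.4 in D351, below it, so that only a bound of at least 1.09-fold higher in D16 can be given. Its levels do not show whether Dut differed as the others did. Dtymk, the thymidylate kinase gene that acts on the products of both Tyms and Tk1, measured 174 in D16 and 80.3 in D351 and was 2.17-fold higher in D16, while its second probe set had a log2 ratio of 0.21.

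**Figure D2:**
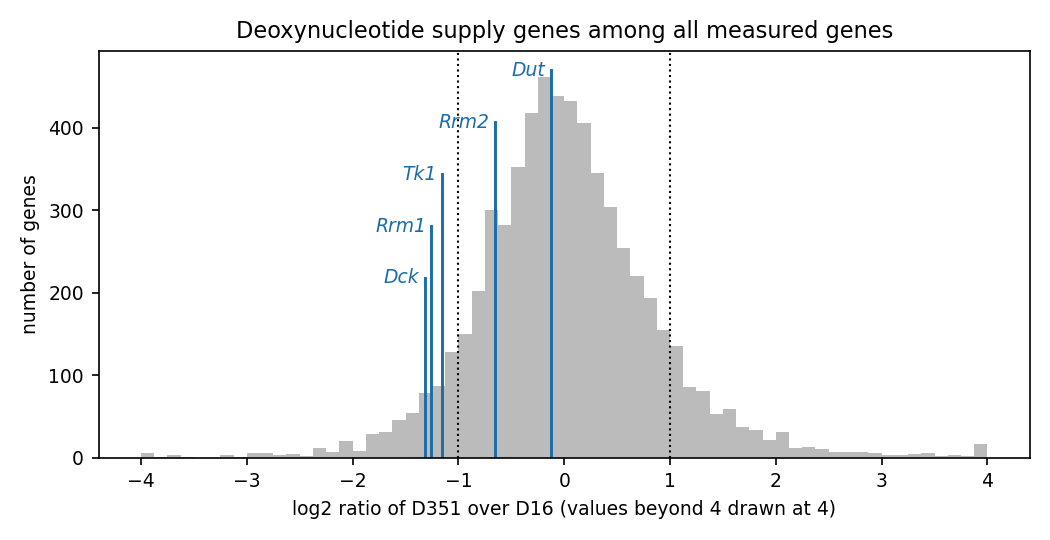
Log2 ratio of D351 over D16 for the 6098 genes measured (grey, number of genes in each bin), with the 5 deoxynucleotide supply genes drawn as labelled lines whose height has no meaning and dotted lines at 2-fold. Dck at -1.32, Rrm1 at -1.26 and Tk1 at -1.16 lie beyond 2-fold on the D16 side, Rrm2 at -0.65 lies within it, and the value of Dut, -0.12, is a bound.

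The error that can be measured on these arrays is that between probe sets. Among 45 genes that were 2-fold to 3-fold higher in D16 by their brightest probe set, the range in which Dck, Rrm1 and Tk1 lie, and that had a second probe set measured in both clones, the second was also higher in D16 for 40 (88.9%) and also at least 2-fold higher for 15. None of the 4 genes above the floor in both clones had a second probe set measured in both, so this check could not be made on them directly. The second probe set of Tk1, above the floor in D351 alone, went the other way, with a log2 ratio of 0.39.

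The genes with the most similar pair of levels were taken as the nearest non-member by distance of the log2 levels over the 2 arrays, among 5194 genes. For Rrm1 this was Cpt2, a carnitine palmitoyltransferase gene of mitochondria, with levels of 502 and 214. For Rrm2 it was Slc25a5, an ADP/ATP carrier gene, with 306 and 194. For Tk1 it was Fam171a1, with 410 and 194, and for Dck it was Otud4, with 311 and 128. With only 2 arrays many genes lie as near: 17 genes were within a distance of 0.25 of Rrm1, 67 of Rrm2, 20 of Tk1 and 30 of Dck.

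The genes around the deoxynucleotide supply genes in nucleotide metabolism did not share one direction. Of 48 measured genes in 7 further nucleotide lists, 9 passed 2-fold towards D16 (18.8%) and 6 towards D351 (12.5%), with a median log2 ratio of -0.20. The shares over all measured genes were 8.87% and 10.6%. Of the 48 genes, 30 had a negative ratio, as had 3144 of all 6098. In the folate cycle that serves thymidylate synthase, 2 of 6 measured genes passed 2-fold towards D16 and 1 towards D351. The median of this list was -0.66, and 5 of its 6 genes had a negative ratio. Shmt1, which loads folate with the carbon that thymidylate synthase transfers, was 4.66-fold higher in D16, with a D351 level of 21.1, near the floor. Slc19a1, the reduced folate carrier gene, was 2.02-fold higher in D16, and -0.56 on the log2 scale by another of its probe sets. In the other direction, Ggh, which encodes a hydrolase of stored folates, was 2.26-fold higher in D351.

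Among the other nucleoside and nucleotide kinases, 3 of 14 passed 2-fold towards D16 and 2 towards D351, with a median of 0.18. Besides Dtymk, these included Cmpk1, the UMP/CMP kinase gene, whose product also phosphorylates dCMP, the product of Dck. Cmpk1 measured 391 in D16 and 130 in D351, 3.01-fold higher in D16. Ak4, a mitochondrial adenylate kinase gene, was 5.75-fold higher in D16 with a D351 level of 20.3, near the floor, and its second probe set had -1.31. Ak1, the cytosolic adenylate kinase gene, was 2.86-fold higher in D351.

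Genes of nucleotide breakdown and base salvage differed in both directions, 2 of 10 each way, with a median of -0.18. Dctpp1, whose enzyme cleaves dCTP, was 2.98-fold higher in D16, at 278 in D16 and 93.5 in D351, and its other probe set had -1.74 on the log2 scale. Ada, the adenosine deaminase gene, which also clears deoxyadenosine, was 2.11-fold higher in D16, with -1.21 for another probe set. Pnp, the purine nucleoside phosphorylase gene, was 3.52-fold higher in D351, at 425 in D16 and 1495 in D351. Xdh, the xanthine dehydrogenase gene at the end of purine breakdown, was 7.45-fold higher in D351, though its 23.3 in D16 was close to the floor. Samhd1, which encodes the dNTP hydrolase of resting cells, measured 76.7 and 69.1, a log2 ratio of -0.15.

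Among genes of de novo synthesis of ribonucleotides, the substrates of the reductase, few of those measured differed past 2-fold. Of 13 purine synthesis genes, 8 had a probe set of their own and 4 were above the floor in both clones. For the other measured purine synthesis genes the ratio is a bound. Of 7 measured purine synthesis genes, 1 was past 2-fold: Impdh1, an IMP dehydrogenase gene, at least 2.08-fold higher in D16, being below the floor in D351. Of 5 pyrimidine synthesis genes, 1 was past 2-fold: Ctps2, a CTP synthase gene, 2.81-fold higher in D351. The medians were -0.50 and -0.43.

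**Figure D3:**
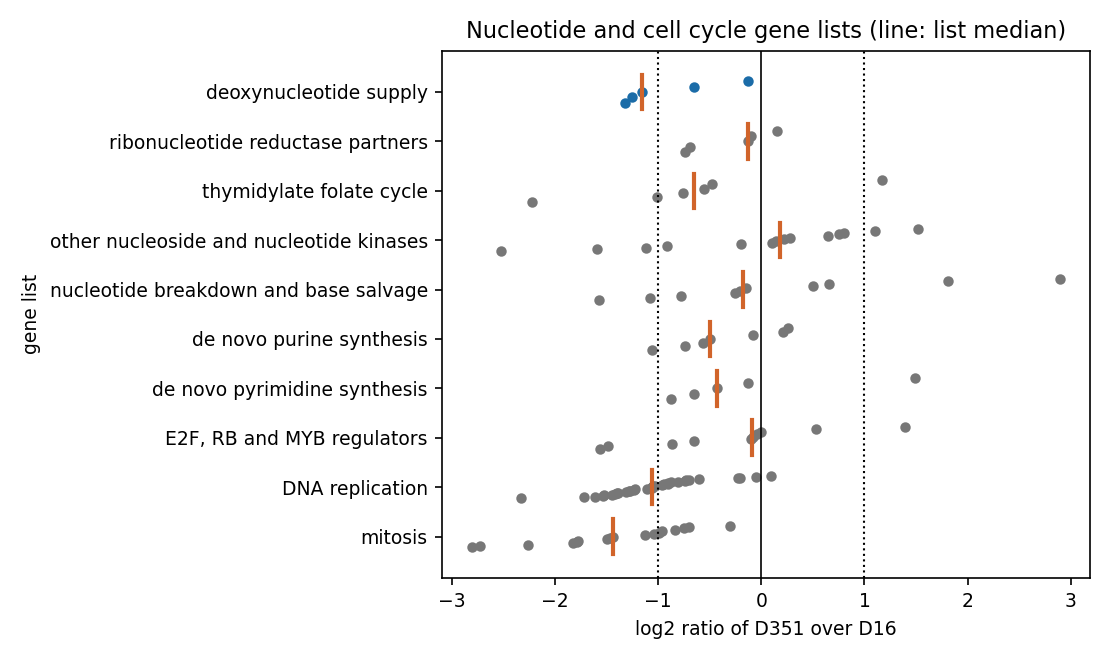
Log2 ratio of D351 over D16 for each measured gene (points) of the deoxynucleotide supply genes, the nucleotide lists and the cell cycle lists. The nucleoside transporter list is not drawn. The list median is a vertical line, and dotted lines are at 2-fold. The deoxynucleotide supply genes (median -1.16) lie in the range of the DNA replication list (-1.06) and the mitosis list (-1.44), while the kinase and breakdown lists spread to both sides of 0.

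The lists whose values were most like these were those of the cell cycle, which share no gene with them. Of 34 measured DNA replication genes, 20 passed 2-fold towards D16 (58.8%) and 0 towards D351, with a median of -1.06, against 3 of 5 deoxynucleotide supply genes and a median of -1.16. Of 17 mitosis genes, 11 passed it towards D16 (64.7%) and 0 towards D351, with a median of -1.44. No test of a difference between these lists was possible. Cdc6, a licensing factor gene of replication origins, was 3.30-fold higher in D16, and Orc1, an origin recognition subunit gene, at least 5.01-fold. The differences of Cdc20, the mitotic activator gene at 6.99-fold, and of Mki67, the proliferation marker gene at 6.62-fold by its brightest probe set (0.29 on the log2 scale by another), exceeded those of Dck, Rrm1 and Tk1.

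In the list of E2F, RB and MYB regulators, 10 genes were measured and had a median of -0.09. Past 2-fold were 2 of them towards D16 and 1 towards D351. Foxm1, an activator of late cell cycle genes, was 2.96-fold higher in D16, with -2.14 for another probe set. E2f8, a repressor that is itself expressed in cycling cells, was 2.81-fold higher in D16, with -1.72 for another. Rbl2, the p130 pocket protein gene of resting cells, was 2.63-fold higher in D351, though its 20.2 in D16 was close to the floor.

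The scale set between the arrays bears on these ratios. The 9 hybridization control probe sets, for RNAs that are normally added in equal amounts, had a median log2 ratio of -0.39. Scaled on them, the median of all genes moved from -0.03 to 0.34, and the share of genes at least 2-fold higher in D16 became 4.10% and that higher in D351 19.9%. On that scale 0 of the 4 measured genes passed 2-fold, with log2 ratios of -0.93 for Dck, -0.86 for Rrm1, -0.76 for Tk1 and -0.26 for Rrm2. All 4 were still higher in D16. Their median lay -1.16 from that of all genes, against -1.13 in the main scaling for the 5 genes with Dut. A common factor cancels in this distance, so its similar size does not bear on the choice of scale. On the same scale the medians of the reductase partner list (0.27), the breakdown list (0.22) and the regulator list (0.30) turned positive. So did that of the 7 nucleotide lists combined (0.20). The median of all genes turned positive too, and these 4 lay below its 0.34. The count over the 48 measured genes of those 7 lists became 5 past 2-fold towards D16 and 10 towards D351. This reversed balance went with the shift of all genes, whose shares on this scale were 4.10% and 19.9%. Of the cell cycle lists, 8 of 34 replication genes (median -0.67) and 9 of 17 mitosis genes (median -1.04) then passed 2-fold towards D16. For the deoxynucleotide supply genes the count was 0 of 4, so the counts were less alike than in the main scaling. Their median of -0.81 lay between those of these lists, as in the main scaling. Both scalings use 1 factor per array, which moves all ratios of genes above the floor alike. The order of the medians could therefore not test the scale.

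**Figure D4:**
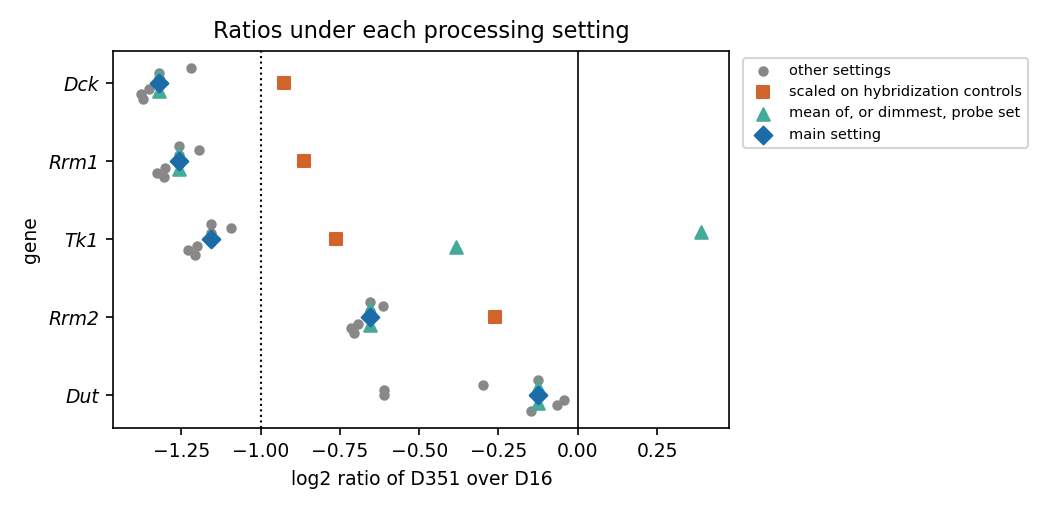
Log2 ratio of D351 over D16 of each deoxynucleotide supply gene under the main setting (diamond), scaled on hybridization controls (square), by the mean of its probe sets or its dimmest measured one (triangles) and under the other settings (grey), with a dotted line at 2-fold. Dck and Rrm1 stay beyond 2-fold in the settings that measure them except on hybridization controls, and Tk1 reaches 0.39 by its dim probe set.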

How the data were processed

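The authors deposited 1 linear intensity per probe set and array. How these were computed (software, background, scaling) is not given in the sources used here. Detection calls were not used. Deposited medians were 31.8 for D16 and 29.7 for D351. Probe sets were named through the platform annotation, which is for version 2 of the U74A array named in the labels. Symbols were updated by gene number to RefSeq (GRCm38.p6). Of 12422 non-control probe sets, 10833 had 1 symbol, 396 several and 1193 none, and those with several or none named no gene.

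Factors of 0.983 (D16) and 1.02 (D351) gave both arrays an equal median log2 level over probe sets not below the floor in either. That floor, the 40th percentile of scaled non-control values, replaced all lower values. Each gene was represented by its brightest probe set, and differences were counted at 2-fold. The number of arrays limits the precision. The genes and lists were chosen with earlier results of these data known. Named genes were all 6 members, up to 4 of each list at 2-fold or more, 6 genes fixed by name, and the nearest gene of each member. The housekeeping list served as a check. In the main scaling 5 of its 7 measured genes had a negative log2 ratio, with a median of -0.39. Actb alone, by a probe set with the suffix f, was at least 2-fold higher in D16. The list median was -0.44 as deposited, -0.05 by quantile normalization, -0.07 by an intensity-dependent scaling and 0.004 on the hybridization controls. Which scale is closer to the truth was not tested. The functions were tested on simulated arrays. Python 3.11.15, numpy 2.4.6, pandas 2.3.3, statsmodels 0.14.6 and matplotlib 3.10.9 were used.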

Additional observations from a re-analysis of the deposited data

How the results depend on the processing

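No paired analysis was possible because the clones have no replicates, nor could any array be omitted. Scaling by the hybridization controls and a threshold of 4-fold each left 0 genes at least that much higher in D16, against 3 in the main setting. At 1.5-fold there were 4. The median log2 ratio of the genes ranged from -1.23 (quantile normalization) to -0.65 (mean over probe sets, or the dimmest measured probe set, both of which change Tk1 alone). Tk1 reversed to 0.39 by its dimmest measured probe set. Leaving out probe sets with cross-matching suffixes removed Dck and gave a median of -0.91. With a floor at the 25th percentile, or none, Dut had -0.61, and it had no value with the floor at the 60th percentile or on hybridization controls. Over the settings tried, Dck ranged from -1.38 to -0.93, Rrm1 from -1.33 to -0.86 and Rrm2 from -0.71 to -0.26. In every setting tried, 0 of the genes passed 2-fold towards D351. Counting the shared Tyms probe set was chosen after seeing the data. Levels near the floor limit Dut, Rrm2b and Tk2, and the other genes given above as near or below it.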
